A study of Schmidtea mediterranea with 60 samples.

Results

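Expression in planarian tails 2 days after amputation (2dpa) was compared between animals given opa1 RNAi and control animals. The comparison rests on 6 of the 60 libraries of the study, chosen by their labels: the 3 tail libraries with opa1 and egfp double-stranded RNA (dsRNA) at 2dpa, and the 3 with egfp dsRNA alone, labelled egfp;egfp, at 2dpa. Earlier tails were collected at 0dpa, 6hpa (hours post amputation) and 1dpa, and a further set of tails at each time was given opa1 and drp1 dsRNA together, called combined RNAi here. A separate set of 24 libraries came from whole bodies given opa1, drp1, sod2 or egfp dsRNA, at 1dpa and at a time labelled homo, which the labels do not explain. All groups had 3 libraries, all received dsRNA, and the opa1 RNAi and control tails had in common an egfp dsRNA, which targets no planarian gene. The number of animals behind a library, the dose of dsRNA and the plane of amputation are not given in the sources used here. P-values therefore speak only of the spread among these libraries, part or all of which may be technical.

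Planarians are flatworms that rebuild missing tissue from neoblasts, the dividing stem cells that lie throughout the body. Opa1 is a GTPase that fuses inner mitochondrial membranes and holds the cristae in shape, and Drp1 is a GTPase that cuts mitochondria apart, so that in animal cells the loss of Opa1 leaves fragmented mitochondria and the further loss of Drp1 works in the opposite direction on their shape. RNAi lowers the targeted transcript without deleting the gene. Feature IDs come without gene names in these files, and no table of names was used, so the level of opa1 itself was not checked, marker genes of tails, neoblasts or other cell types could not be looked up, and no role is given to any feature. In bulk RNA, fewer cells of a type and less RNA per cell cannot be told apart.

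Library sums of the scaled values were alike at 2dpa, from 8362983 to 8678046 in opa1 RNAi tails and from 8588504 to 8824033 in control tails. Between 27103 and 28543 features per library had a value above 0. Pairs of opa1 RNAi libraries correlated at r = 0.975 to 0.976 across features, pairs of control libraries at 0.973 to 0.977, and pairs of 1 library from each group at 0.964 to 0.975. Features are not independent replicates, and these values are descriptions. The median SD of a feature within a group was 0.20 on the log2 scale in both groups, and no libraries were identical.

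Opa1 RNAi changed a small share of the tail transcripts at 2dpa. Of 20681 features tested with limma on log2(value + 1), 210 were called at an adjusted p under 0.05, which is 1.02% of them. In opa1 RNAi tails 115 features were higher, 0.556% of those tested, and 95 were lower, 0.459%. The rises were mostly modest and the falls reached further: the median log2 fold change was 0.77 among the 115 and −0.81 among the 95, against −0.04 over all features tested. A change of more than 4-fold was found for 4 of the 115 and for 22 of the 95. Every one of the 210 had all libraries of one group above all of the other. Groups that did not overlap were also seen for 9.81% of all features tested in the higher direction and 13.9% in the lower one. Because 1 is added to a value before the logarithm is taken, fold changes of low features are understated.

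The count of 210 moved with the library left out and with the libraries fitted. It was 107 without control replicate 1, 91 without control replicate 2, 102 without opa1 RNAi replicate 1 and 85 without opa1 RNAi replicate 2. It was 369 (168 higher, 201 lower) when the 6hpa libraries were left out of the fit, 1020 (410 higher, 610 lower) with only the 9 libraries at 2dpa and 789 (324 higher, 465 lower) with only the 6 libraries compared. These 3 fits tested 20075, 18465 and 17661 features, and the part of the change that comes from the spread, the filter or the number of libraries was not tested. They shared 112 to 114 of the 115 and 94 of the 95 features. The split also moved with the scaling, to 148 higher and 66 lower after TMM rescaling, and to 87 higher and 119 lower when libraries were scaled to their sum without the most abundant feature.

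**Figure D1:**
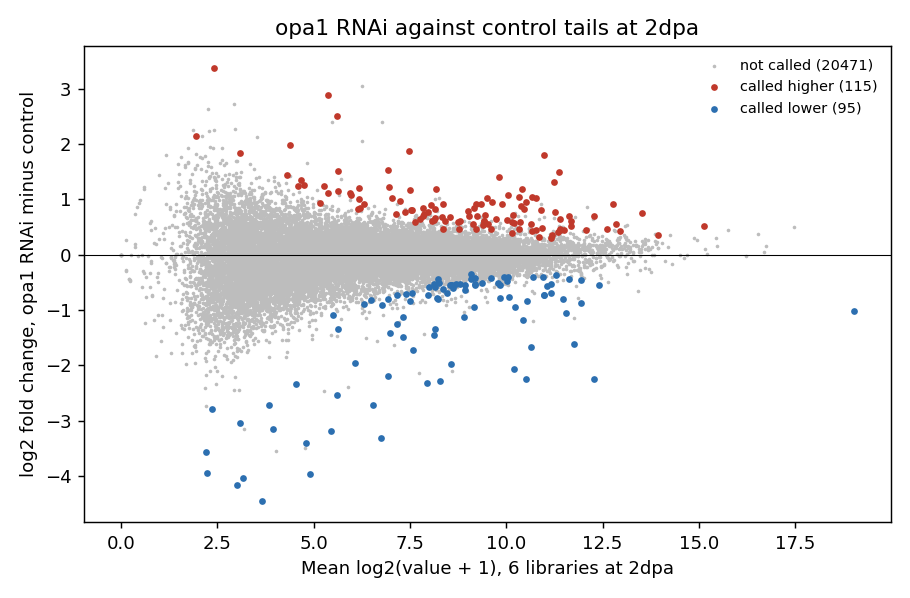
Each point is 1 of the 20681 features tested, placed by its mean log2(value + 1) over the 6 libraries at 2dpa (x axis) and by its log2 fold change, opa1 RNAi minus control (y axis). Red points are the 115 called higher and blue points the 95 called lower, the lowest at −4.45.

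Called features were abundant ones. Their median value in control tails was 476 for the 115 and 465 for the 95, against 80.8 over all features tested, on the scaled values, which are not per length. In 4 classes of 25% of the features each, ordered from the lowest mean level to the highest, lay 2, 14, 23 and 76 of the 115 features and 9, 11, 27 and 48 of the 95. The median SD within groups over the same classes was 0.56, 0.30, 0.16 and 0.11 on the log2 scale. The next values are a description, since the same libraries chose the features. Taken over the 115 features, the median log2 difference from the control mean was 0.73, 0.80 and 0.72 in opa1 RNAi replicates 1 to 3, and over the 95 it was −0.81, −0.80 and −0.82. The 115 features made up 2.84%, 2.86% and 2.69% of the summed values in opa1 RNAi tails, against 1.78%, 1.69% and 1.85% in control tails.

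Among the rises, SMED30007457 had the smallest p. It had 4590, 4440 and 4200 in opa1 RNAi tails, against 1530, 1780 and 1410 in control tails. The groups were far apart beside their spread, and the fold change was 2.82 (log2 1.49, SE 0.10, limma adjusted p = 7.97e-13). SMED30026774 came next, with 1560, 1510 and 1350 in opa1 RNAi tails, against 579, 542 and 542 in control tails. Its fold change was 2.65 (log2 1.41, adjusted p = 5.89e-11 by limma), again with no overlap.

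The features with the largest rises were less certain, being low or variable. In 1 of them opa1 RNAi tails had 22.4, 24.2 and 7.94, against 1.5, 0 and 0.859 in control tails, a log2 fold change of 3.38 (SE 0.68, limma adjusted p = 0.0046). Its call was lost without control replicate 2 (adjusted p = 0.0599 by limma) or opa1 RNAi replicate 2 (0.0631). In the other, opa1 RNAi tails had 43.5, 113 and 286, against 6.19, 17.2 and 26.7 in control tails, with a log2 fold change of 2.88 (limma adjusted p = 0.0248). Libraries of either group differed several-fold among themselves there, and the limma adjusted p was 0.22 without control replicate 1, 0.0754 without control replicate 2, 0.119 without opa1 RNAi replicate 2, 0.175 without opa1 RNAi replicate 3 and 0.0522 with no filter on low values.

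Among the falls, SMED30012212 had the smallest p. It had 2290, 2460 and 2100 in opa1 RNAi tails, against 9560, 11300 and 11600 in control tails. That is a 4.73-fold lower value (log2 −2.24, SE 0.15, limma adjusted p = 7.97e-13), with each group tight around its mean. SMED30020097 had 124, 138 and 157 in opa1 RNAi tails, against 636, 695 and 706 in control tails, and was 4.84-fold lower (log2 −2.28, limma adjusted p = 3.23e-11). Calls of these 4 features, SMED30007457, SMED30026774, SMED30012212 and SMED30020097, held in all 17 alternatives run for them.

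The deepest falls came in features that were near 0 with opa1 RNAi. The first had 0, 7.26 and 1.44 in opa1 RNAi tails, against 72.1, 86.6 and 31.6 in control tails, a log2 fold change of −4.45 (SE 0.93, limma adjusted p = 0.00748). The second had 0, 3.08 and 0.729 in opa1 RNAi tails, against 46.4, 29.9 and 27.2 in control tails, a log2 fold change of −4.17 (limma adjusted p = 0.00361). Groups were apart in both, with control libraries that differed among themselves by more than those of abundant features. The first lost its call without control replicate 1 (adjusted p = 0.0536 by limma), control replicate 2 (0.0726) or opa1 RNAi replicate 1 (0.11). The second lost its call without opa1 RNAi replicate 1 (limma adjusted p = 0.0505). It passed the filter on low values only through its control libraries given above. Leaving out any of these removed it from the test, so its call could not be checked there.

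The most abundant tail feature also fell, and it sets part of the scale for all others. It took up 4.61%, 5.02% and 3.61% of the summed values in opa1 RNAi tails, against 8.39%, 7.89% and 10.04% in control tails, so the groups did not overlap. Its log2 fold change was −1.02 (SE 0.23, limma adjusted p = 0.0139). The lower share was not particular to 2dpa: the log2 fold change was −0.95 at 0dpa, −1.38 at 6hpa and −1.25 at 1dpa, with limma adjusted p = 0.058, 0.000639 and 0.00232. Setting this feature aside when libraries are scaled gives the split of 87 higher and 119 lower given above, and no call of the other named features was lost by it.

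**Figure D2:**
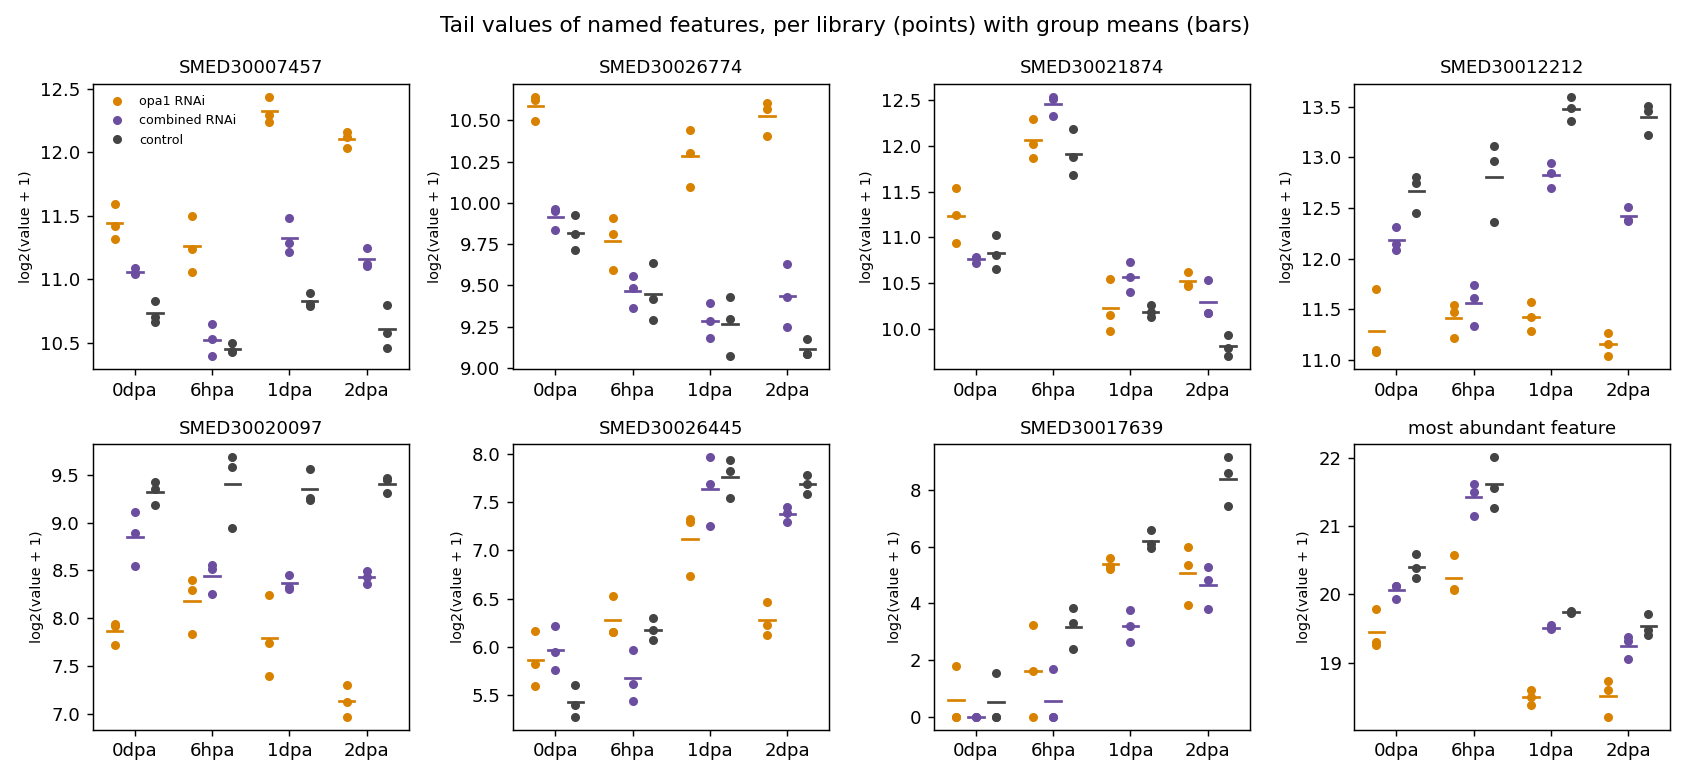
Log2(value + 1) in every tail library (points) with group means (bars), by time, with opa1 RNAi in orange, combined RNAi in purple and control in grey, for 7 named features and the most abundant one. At 2dpa the opa1 RNAi libraries lie above all control libraries in the first 3 panels and below them in the other 5.

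The same features were next followed through the earlier times. Libraries of these times are not part of the contrast at 2dpa, but they were in the same fit, where they helped to set the spread and the filter behind its calls, so features of low spread are more easily called in both. Over the 115 features the median log2 fold change, opa1 RNAi minus control, was 0.36 at 0dpa, 0.19 at 6hpa and 0.28 at 1dpa, and over the 95 it was −0.23, −0.19 and −0.24. Medians over all features tested were between −0.03 and −0.02 at these times. Since the values at 2dpa chose the features, that these medians are smaller than 0.77 and −0.81 is not a result. The medians also depended on the library left out at 2dpa, through the list it gave. Over the features then called lower they were −0.35, −0.38 and −0.71 at 0dpa, 6hpa and 1dpa without control replicate 2, and −0.41, −0.40 and −0.62 without opa1 RNAi replicate 1. Without opa1 RNAi replicate 2 they were −0.36 at 6hpa and −0.65 at 1dpa, and without opa1 RNAi replicate 3 the median at 6hpa was −0.09. Over the features then called higher it was 0.45 at 1dpa without opa1 RNAi replicate 1. On the deposited TPM values the lower features had −0.09 at 0dpa and 0.00 at 6hpa, and the higher ones 0.56 at 6hpa. Over all features tested on TPM, the median effect was −0.02 at 2dpa, and its difference from 6hpa had a median of −0.29. In the main fit that difference was 0.00. The TPM values at 6hpa thus hold a shift of all features and are not to be set against the medians given above.

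Of the 115 features, limma called 16 higher at 0dpa, 12 at 6hpa and 29 at 1dpa, where 0.111%, 0.614% and 0.256% of all features tested were called higher. Of the 95 features, 10, 14 and 15 were called lower at these times, where the share of all features was 0.135%, 0.919% and 0.256%. Even among the 5170 most abundant features, the top 25% by level, no more than 0.832% were called higher and 1.39% lower at any of the 3 times. In the direction opposite to 2dpa limma called 1 feature of each list at 6hpa, and 0 at 0dpa and 1dpa, where 1 and 0 of the 115 and 4 and 1 of the 95 had an unadjusted p under 0.05 in that direction. Lists of this length would hold about as few such calls at the shares of all features, so no result is read from them. Without opa1 RNAi replicate 2 at 2dpa the list of higher features shrank to 48, with 10, 5 and 19 of them called higher at 0dpa, 6hpa and 1dpa. Without control replicate 1 it shrank to 64, with 10 and 5 called at 0dpa and 6hpa, and without opa1 RNAi replicate 1 to 60, with 7 called at 6hpa. The list of lower features shrank to 37 without opa1 RNAi replicate 2, with 9 called lower at 6hpa.

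Most of the 210 were called at 2dpa alone by this threshold, which does not mean that no effect was present earlier. At an unadjusted p under 0.05 by limma, 70, 42 and 53 of the 115 were higher at 0dpa, 6hpa and 1dpa. Of the 95, 30, 28 and 32 were lower. In the opposite direction these counts were 1, 6 and 0 of the 115 and 4, 4 and 1 of the 95. Of all 20681 features, 1803, 3168 and 2004 had such a p in either direction. None of the 3 earlier times had a call in the same direction for 80 of the 115 and 74 of the 95 features, while 6 and 7 were called the same way at all 4 times. SMED30007457 was one of the 6. It had 3100, 2560 and 2740 in opa1 RNAi tails at 0dpa, against 1670, 1620 and 1810 in control tails, and 5550, 5010 and 4840 at 1dpa, against 1760, 1900 and 1790. Control tails stayed close to their starting level while the opa1 RNAi tails were higher at each time, most of all at 1dpa and 2dpa. Of the 7, SMED30012212 had 2180, 3320 and 2160 in opa1 RNAi tails at 0dpa, against 5580, 6870 and 7170 in control tails, and 3050, 2740 and 2500 at 1dpa, against 11500, 10500 and 12400.

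**Figure D3:**
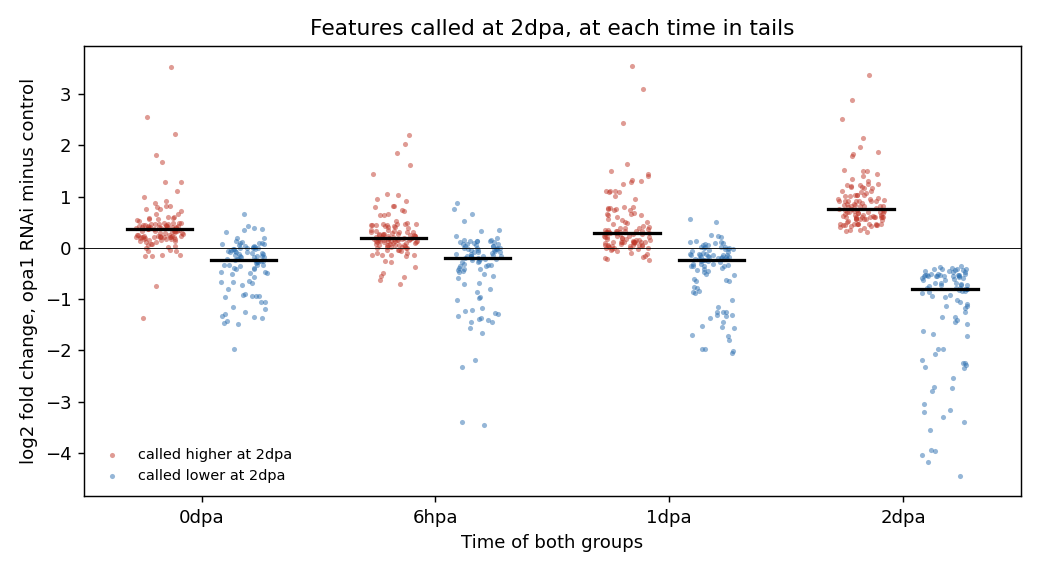
Log2 fold change, opa1 RNAi minus control, at each time in tails for the 115 features called higher at 2dpa (red) and the 95 called lower (blue), with 1 point per feature and black bars at the medians. The medians are 0.36, 0.19, 0.28 and 0.77 for the higher features and −0.23, −0.19, −0.24 and −0.81 for the lower ones, and the 2dpa columns are the values that chose the features.

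Whether the effect itself differed between 2dpa and the other times was tested by interaction contrasts in limma. An unadjusted p under 0.05 against 0dpa was found for 920 of the 20681 features, a smaller share than that threshold gives where no effect differs. Against 0dpa, 10 features were called, 0.0484% of those tested, with the effect more positive at 2dpa in 3 and more negative in 7. The effect had opposite signs at the 2 times in 5 of the 10, which choosing features by their difference favours. One of them was SMED30026445. It had 69, 74.1 and 87.7 in opa1 RNAi tails at 2dpa, against 205, 219 and 192 in control tails, but 55.6, 47.4 and 70.6 in opa1 RNAi tails at 0dpa, against 47.6, 37.8 and 41.2. The log2 fold change was −1.41 at 2dpa (limma adjusted p = 1.74e-05) and 0.43 at 0dpa (limma adjusted p = 0.522), and the difference was −1.84 (SE 0.28, limma adjusted p = 0.00165). At 1dpa it had 156, 105 and 160 in opa1 RNAi tails, against 225, 186 and 243 in control tails, so both groups had risen above 0dpa by then, and by 2dpa only the control tails were still at that level. SMED30007457 was called in the other direction, with a difference of 0.78 (SE 0.14, limma adjusted p = 0.00965). The count was 5 without control replicate 1 at 2dpa and 17 without opa1 RNAi replicate 1 at 0dpa.

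Against 6hpa, 53 features were called, 0.256% of those tested, with 30 more positive and 23 more negative at 2dpa. In 42 of them the 2 effects had opposite signs, and 26 were among the 210. Choosing features by their difference favours opposite signs, and some of these effects were near 0, so no reversal is read from the 42. Replicates at 6hpa were the least alike, with a median SD of 0.33 in opa1 RNAi tails and 0.31 in control tails on the log2 scale. The count was 148 without control replicate 2 at 6hpa, 89 without control replicate 3 and 87 without opa1 RNAi replicate 2 at that time. It was 32, 29 and 32 without control replicates 1, 2 and 3 at 2dpa. Without opa1 RNAi replicates 1 and 2 at 2dpa it was 27 and 31. On the deposited TPM values it was 707, with 7 more positive and 700 more negative at 2dpa. There the median difference over all features tested was −0.29, against 0.00 in the main fit, so this count comes with a shift of all features. SMED30026774 was among the 53, with a log2 fold change of 1.41 at 2dpa and 0.32 at 6hpa, a difference of 1.08 (SE 0.16, limma adjusted p = 0.000245).

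Against 1dpa, 4 features were called, 0.0193% of those tested, all with the effect more positive at 2dpa, and 1552 had an unadjusted p under 0.05. They lie outside the rule for named features, and 2 were chosen here after their values were seen. SMED30012973 had a log2 fold change of 0.85 at 2dpa and −0.22 at 1dpa, a difference of 1.08 (SE 0.18, limma adjusted p = 0.0215). SMED30030996 had 1.03 at 2dpa and −0.06 at 1dpa, a difference of 1.10 (SE 0.21, limma adjusted p = 0.0446). No call remained without control replicate 1 at 1dpa, or without control replicate 2, opa1 RNAi replicate 1 or opa1 RNAi replicate 2 at 2dpa. There was 1 call without control replicate 2 at 1dpa or opa1 RNAi replicate 3 at 2dpa, and 17 without opa1 RNAi replicate 2 at 1dpa.

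The called features were set against the course of regeneration in control tails, using the change from 0dpa to 1dpa, a contrast that uses none of the 6 libraries compared at 2dpa, in the same fit. Features that were lower with opa1 RNAi at 2dpa were often ones that control tails had raised by 1dpa. Of the 95, limma called 47 (49.5%) higher in control tails at 1dpa than at 0dpa, where 6.88% of all features and 13.4% of the top 25% by level were called. The median log2 change of the 95 was 0.49, against 0.04 over all features. Of the 115 features that were higher with opa1 RNAi at 2dpa, 36 (31.3%) were called lower in control tails at 1dpa, where 6.88% of all features and 16.6% of the top 25% were called, and the median log2 change was −0.32. A further 14 of the 115 (12.2%) were called higher, a share close to the 13.4% of the top 25%.

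These counts moved with the library left out and with the scaling. The count of lower features that control tails had raised by 1dpa was 20 of 43 without control replicate 1 at 2dpa, 13 of 34 without control replicate 2, 20 of 42 without opa1 RNAi replicate 1 and 13 of 37 without opa1 RNAi replicate 2. In the same order, the count of higher features that control tails had lowered was 18 of 64, 19 of 57, 15 of 60 and 14 of 48. It was 18 of 87 with libraries scaled to their sum without the most abundant feature, and 14 of 114 on the deposited TPM values, with a median log2 change of −0.09. Without control replicate 2 at 2dpa the medians were 0.33 for the lower and −0.19 for the higher features. The count of higher features that control tails had raised was 8 without control replicate 1 or any 1 opa1 RNAi replicate, and 9 without control replicate 3.

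By 2dpa the median of the 115 features, on the log2 scale relative to control tails at 0dpa, stood at 0.07 in opa1 RNAi tails and −0.63 in control tails. For the 95 features it stood at −0.02 in opa1 RNAi tails and 0.77 in control tails. The libraries at 2dpa chose these features, so that the 2 medians part at 2dpa is not a result. The levels before 2dpa come from libraries outside that contrast. At 1dpa the 95 features were at 0.24 in opa1 RNAi tails and 0.49 in control tails, both above 0, and the 115 features were at 0.00 in opa1 RNAi tails and −0.32 in control tails.

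**Figure D4:**
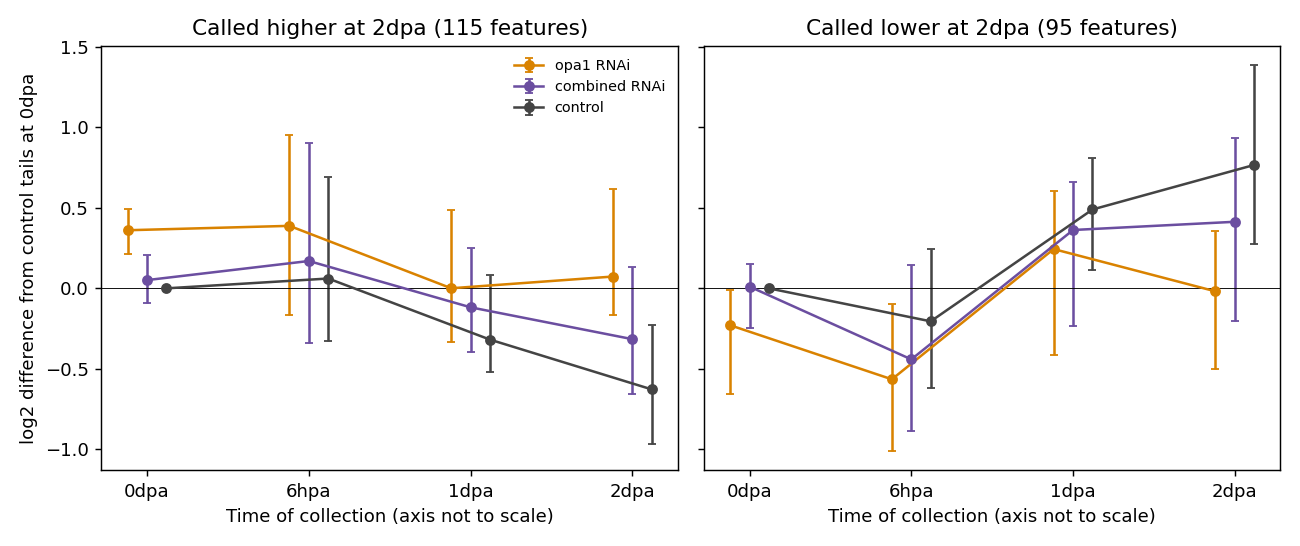
Median log2 difference from control tails at 0dpa over the 115 features called higher at 2dpa (left) and the 95 called lower (right), with bars from the lower to the upper quartile over features, for opa1 RNAi (orange), combined RNAi (purple) and control tails (grey). At 1dpa the 95 features are above 0 in all 3 groups, and at 2dpa they are at −0.02 with opa1 RNAi and 0.77 in controls.

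The 22 features that fell by more than 4-fold at 2dpa were of unlike abundance, and most were low at 0dpa. In the order 0dpa, 6hpa, 1dpa, 2dpa, their median value was 1.62, 1.58, 17.4 and 8.71 in opa1 RNAi tails, against 2.82, 11.7, 34.2 and 106 in control tails. Of the 22, 14 were under 10 in control tails at 0dpa, while SMED30012212 and SMED30020097, also among the 22, were far above that. Control tails at 2dpa helped to choose the 22, so their high median there is not a result. In control tails limma called 11 of the 22 higher at 1dpa than at 0dpa, a contrast without libraries of 2dpa. In that contrast 6.88% of all features and 47 (49.5%) of the 95 were called higher, so the share is not particular to the 22. SMED30017639 was among the 22. It had 62.4, 39.4 and 14.3 in opa1 RNAi tails at 2dpa, against 568, 383 and 173 in control tails, while at 0dpa it was at 0, 0 and 2.48 in opa1 RNAi tails and at 0, 1.9 and 0 in control tails. Its control libraries differed by more than 3-fold at 2dpa but stayed above all opa1 RNAi libraries, with a log2 fold change of −3.31 (SE 0.66, limma adjusted p = 0.00469). The call was lost without control replicate 1 (limma adjusted p = 0.0689) or opa1 RNAi replicate 3 (0.0594).

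The 56 features that fell by less than 2-fold had another course. Over the same times their median value was 453, 351, 548 and 472 in opa1 RNAi tails, against 495, 350, 648 and 654 in control tails. They were well expressed at 0dpa, and the groups had like medians up to 6hpa.

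The effect of adding drp1 dsRNA was read at 2dpa, and then at 0dpa, 6hpa and 1dpa. At 2dpa limma called 152 features between combined and opa1 RNAi tails, 0.735% of those tested. With combined RNAi 55 of them were higher (0.266% of those tested) and 97 lower (0.469%). Between combined RNAi and control tails it called 77, 0.372%, of which 14 were higher (0.0677%) and 63 lower (0.305%). In the first of these comparisons the calls were 22 higher and 148 lower after TMM rescaling, 72 higher and 76 lower with libraries scaled without the most abundant feature, and 161 higher and 127 lower without the 6hpa libraries. Both comparisons share libraries with the one that chose the 210 features, so only the values are set side by side. Over the 115 features, the median log2 fold change at 2dpa was −0.43 for combined minus opa1 RNAi, 0.34 for combined RNAi minus control and 0.77 for opa1 RNAi minus control. Over the 95 features it was 0.43, −0.39 and −0.81.

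Combined RNAi tails lay between the other groups at 2dpa in SMED30007457, SMED30012212 and SMED30020097. In combined RNAi tails SMED30007457 had 2210, 2230 and 2420, below every opa1 RNAi library and above every control library. SMED30012212 had 5830, 5330 and 5280 and SMED30020097 had 345, 328 and 359 in combined RNAi tails, above every opa1 RNAi library and below every control library. The 22 features that fell by more than 4-fold had a median of 18.7 in combined RNAi tails, against 8.71 in opa1 RNAi tails and 106 in control tails. They ranged widely, with a lower and an upper quartile of 3.70 and 106 in combined RNAi tails, against 2.59 and 53.9 in opa1 RNAi tails and 35.8 and 346 in control tails. In SMED30017639, combined RNAi tails had 12.9, 27.4 and 37.9, which overlapped the opa1 RNAi libraries. Combined RNAi means were 1.92 and 2.10 in the 2 deepest falls, against 2.90 and 1.27 with opa1 RNAi and 63.4 and 34.5 in controls. For the 2 largest rises they were 3.59 and 144, against 18.2 and 148 with opa1 RNAi and 0.786 and 16.7 in controls. The 56 features that fell by less than 2-fold had a median of 603 in combined RNAi tails, against 472 in opa1 RNAi tails and 654 in control tails.

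At the 3 earlier times combined and opa1 RNAi tails were compared in libraries outside the contrast at 2dpa, though in the same fit. Of the 115, limma called 21 lower and 2 higher with combined than with opa1 RNAi at 0dpa, and 18 lower and 0 higher at 1dpa. At these times 0.546% and 0.218% of all features, and 1.43% and 0.638% of the top 25% by level, were called lower. Of the 95, limma called 4 higher and 0 lower with combined RNAi at 0dpa, and 9 higher and 1 lower at 1dpa. There 0.218% and 0.0822% of all features, and 0.522% and 0.232% of the top 25%, were called higher. At 6hpa limma called 14 of the 115 lower and 0 higher, and 11 of the 95 higher and 3 lower. The median log2 fold changes at 6hpa were −0.07 and 0.09, and 496 of all 20681 features were called higher and 488 lower. The count of 21 was 13 without control replicate 1 or 2 at 2dpa, 11 without opa1 RNAi replicate 2 at 2dpa and 39 with the 6hpa libraries left out, all from the lists as they then stood.

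Whole bodies share no library with the tails and were tested with edgeR on counts, with library sums between 11529720 and 14328910 in the opa1 RNAi and control groups. That is another test on another kind of value, so the shares called are not set against those of the tails. At 1dpa 4.57% of the 22889 features tested were called higher and 6.64% lower, and at homo 19.2% and 15.6%. Of the 210 tail features 209 could be tested there, since the most abundant tail feature was not among the features of the whole-body table.

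At 1dpa the tail features called in whole bodies went mostly the same way, though less so for the higher ones of some other tail fits. Of the 115, edgeR called 49 (42.6%) higher and 11 (9.57%) lower, with a median log2 fold change of 0.22. Of the 94 tested of the 95, 36 (38.3%) were called lower and 3 (3.19%) higher, with a median of −0.15. Among the features of the top 25% by tail level, 8.96% were called higher and 16.7% lower in this comparison. The higher lists from the 9 libraries at 2dpa and from only the 6 compared had 408 and 323 features tested here. Of these, 89 and 79 were called higher and 66 and 47 lower. Of the 606 and 464 tested of the lower lists, 154 and 130 were called lower and 32 and 24 higher. Without the 6hpa libraries it was 56 higher and 18 lower of 168, and 68 lower and 13 higher of 200. The count of 3 was 1 without control replicate 2, control replicate 3 or opa1 RNAi replicate 2. The 17 tail features that fell by between 2- and 4-fold, of which 16 could be tested, held 11 of the calls lower in whole bodies, with a median of −0.85. The 22 that fell by more than 4-fold in tails were divided, with 6 lower and 2 higher.

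At homo the higher and the lower tail features differed in their behaviour. Of the 115, edgeR called 97 (84.3%) higher, beside 43.2% of the top 25% by tail level, and 0 lower, with 0 at an unadjusted p under 0.05 in that direction and 0 by DESeq2. Their median log2 fold change was 0.73. With the higher lists from the 9 libraries at 2dpa and the 6 compared, 260 of 408 and 215 of 323 were called higher. In these lists 21 and 12 were called lower. Of the 94, 30 (31.9%) were called higher and 14 (14.9%) lower, with a median of 0.11, and neither share was above that of the top 25%, 43.2% and 15.7%. This balance depended on the tail fit that gave the list. With the lower list from the 9 libraries at 2dpa, 130 of 606 were called higher and 162 lower. With that from only the 6 compared it was 107 and 124 of 464, and without the 6hpa libraries 60 and 29 of 200. The count of 30 was 14 without control replicate 3, and the median of 0.11 was 0.17 without control replicate 1 and 0.18 without opa1 RNAi replicate 3. The effect in whole bodies at 1dpa minus that at homo was called lower for 60 of the 115 and 43 of the 94, against 15.7% of all features tested and 37.5% of the top 25%.

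**Figure D5:**
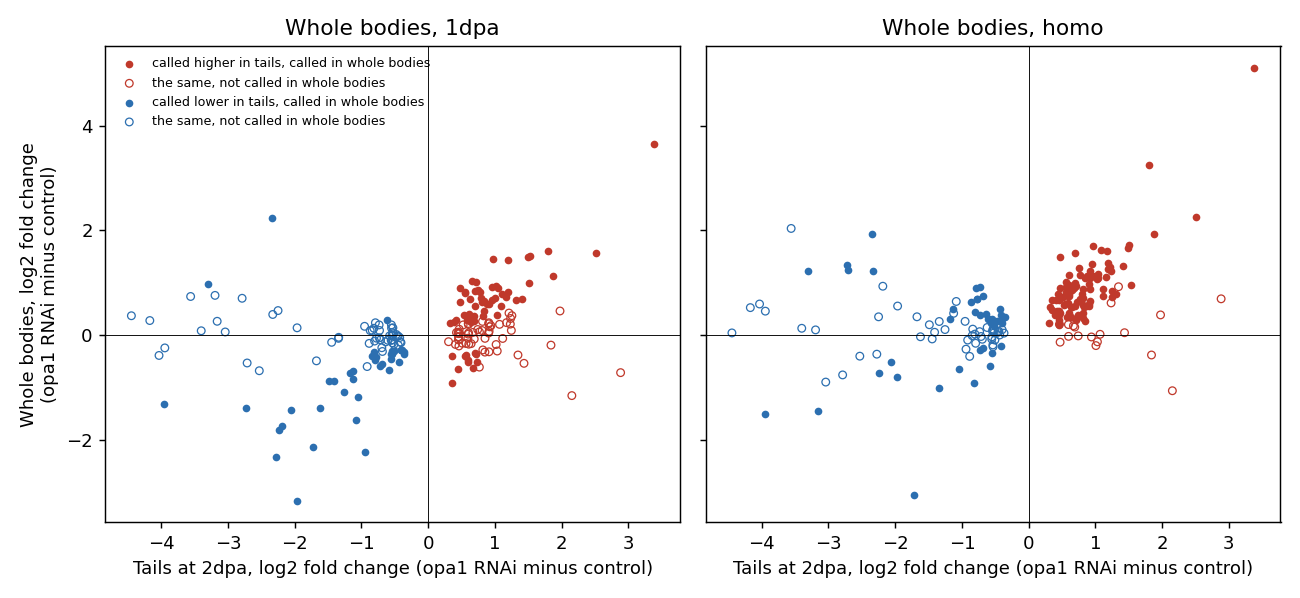
Log2 fold change, opa1 RNAi minus control, in tails at 2dpa (x axis, the values that chose the features) and in whole bodies at 1dpa (left) or homo (right) (y axis), for 209 features called in tails. Filled points were also called in whole bodies by edgeR, and at homo 97 of the 115 red points are filled and above 0.

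SMED30007457 was higher with opa1 RNAi in whole bodies too. It had 362, 360 and 380 CPM (counts scaled to a common library size) with opa1 RNAi at 1dpa, against 125, 136 and 131 in controls, and 514, 629 and 485 at homo, against 177, 172 and 165. Log2 fold changes were 1.49 at 1dpa (edgeR adjusted p = 9.16e-14) and 1.66 at homo (edgeR adjusted p = 2.36e-15). SMED30012212 had 81.5, 74.4 and 82.3 CPM with opa1 RNAi at 1dpa, against 288, 253 and 295 CPM in controls, and 156, 83.9 and 137 CPM at homo, against 239, 198 and 182 CPM. It was lower at both times with no overlap, by log2 −1.81 (edgeR adjusted p = 7.64e-08) and −0.72 (edgeR adjusted p = 0.0039). SMED30020097 fell in whole bodies at 1dpa, to 3.99, 4.26 and 5.06 CPM with opa1 RNAi, against 21.9, 20.5 and 24.2 CPM in controls (log2 −2.32, edgeR adjusted p = 2.75e-08). At homo its groups were close, with 9.99, 5.53 and 6.75 CPM with opa1 RNAi, against 10.3, 11 and 7.31 CPM in controls (log2 −0.36, edgeR adjusted p = 0.243).

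A few tail features went the opposite way in whole bodies at 1dpa. SMED30021874 had 1430, 1570 and 1420 in opa1 RNAi tails at 2dpa, against 980, 833 and 883 in control tails, a log2 fold change of 0.72 (limma adjusted p = 0.00393). In whole bodies at 1dpa it had 61.7, 62.7 and 80.1 CPM with opa1 RNAi, against 87.3, 83.2 and 91.9 CPM in controls (log2 −0.36, edgeR adjusted p = 0.0242). At homo it was higher again, with 218, 188 and 180 CPM with opa1 RNAi, against 118, 101 and 88.6 CPM in controls (log2 0.93, edgeR adjusted p = 1.26e-07). SMED30017639, low with opa1 RNAi in tails at 2dpa, had 75.2, 144 and 106 CPM with opa1 RNAi in whole bodies at 1dpa, against 76.7, 39.7 and 47.8 CPM in controls, which overlap (log2 0.98, edgeR adjusted p = 0.0322). Tails and whole bodies were different experiments at different times, and the difference between them was not tested.

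The tail features were also read in whole bodies given drp1 or sod2 dsRNA, in comparisons added after the data had been seen. These share control libraries with the opa1 comparison in whole bodies, but none with the tails. Sod2 is the manganese superoxide dismutase of mitochondria. With drp1 RNAi at 1dpa, edgeR called 38 of the 115 higher and 11 lower, with a median log2 fold change of 0.12, where 3.83% and 3.36% of all features tested and 9.54% and 6.33% of the top 25% by tail level were called. Of the 94 features lower with opa1 RNAi in tails, 30 were called higher and 7 lower with drp1 RNAi at 1dpa, with a median of 0.13. At homo 71 of the 115 were called higher and 9 lower with drp1 RNAi, with a median of 0.44, and 46 of the 94 higher and 5 lower, with a median of 0.39. There 13.7% and 10.5% of all features and 31.7% and 14.2% of the top 25% were called higher and lower. The count of 30 was 18 without control replicate 2, the count of 11 was 7 without drp1 RNAi replicate 3, the median of 0.12 was 0.20 without drp1 RNAi replicate 2, and the median of 0.39 was 0.24 without control replicate 3. With sod2 RNAi at 1dpa, 13 of the 115 were called higher, where 0.214% of all features were, and 15 of the 94 lower, where 0.179% were. Leaving out 1 library gave 7 to 12 in place of the 13 and 11 to 12 in place of the 15. At homo, with sod2 RNAi, 10 of the 115 were called higher and 4 lower, and 4 of the 94 higher and 16 lower, where 2.15% of all features and 4.47% of the top 25% were called higher and 1.61% and 3.33% lower. Leaving out 1 library, these counts ran from 4 to 11 (lowest without control replicate 3), 2 to 4, 0 to 5 (lowest without control replicate 3 or sod2 RNAi replicate 3) and 10 to 18 (lowest without sod2 RNAi replicate 3).

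The fall of SMED30017639 in opa1 RNAi tails at 2dpa stood beside high values with drp1 RNAi in whole bodies. It averaged 355 ± 61.5 CPM with drp1 RNAi at 1dpa, against 54.7 ± 19.4 CPM in controls (SD, n = 3 each), and 87.7 ± 10.9 CPM at homo, against 7.13 ± 4.75 CPM. Log2 fold changes were 2.70 and 3.62, with edgeR adjusted p = 5.08e-07 and 6.43e-08, and the groups were far apart beside their spread. At 1dpa the mean was also above controls with sod2 RNAi (102 ± 11.5 CPM) and opa1 RNAi (108 ± 34.3 CPM, overlapping controls). At homo the sod2 RNAi mean was not above that of controls, and opa1 RNAi had 16.6 ± 14.9 CPM. In tails at 1dpa, combined RNAi had 8.64 ± 3.73, against 40.7 ± 5.67 with opa1 RNAi and 74.4 ± 17.5 in controls. Limma did not call combined against opa1 RNAi there (adjusted p = 0.254).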

How the data were processed

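RNA from planarian tails (36 libraries, 12 groups) and whole bodies (24 libraries, 8 groups) was sequenced. Per the labels' protocols, libraries were made from total RNA with an NEBNext kit. Kallisto is named in the deposited tables' names. Not given in the sources used here are its version, its index and a genome build. The tail table was deposited as a signal: values already scaled by the authors, equal to the deposited TPM times a constant per feature and a constant per library (median absolute log2 residual 7.12e-06 over 8266 features). None of its non-zero values was whole, so whole reads could not be recovered and depth is unknown. The whole-body table holds estimated counts as deposited by the authors. The deposited TPM table of the tails, with 27444 features and a 0.474 to 0.744 share of each library's TPM, served as an alternative.

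Tail values were tested with limma 3.58.1 (mean-dependent prior) on log2(value + 1), pseudocount 1, in 1 fit of all 36 libraries with 12 group means. Features needed a value of 10 in at least 3 of them. A count test with edgeR had been planned if the tail values were counts. Whole-body counts were rounded and tested with edgeR 4.0.16 (TMM, filterByExpr, quasi-likelihood), with DESeq2 1.42.0 as an alternative. The Benjamini-Hochberg method was applied over all features of a comparison, and features under 0.05 were called. SE stands for standard error. Scripts were tested on simulated data.

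Named features were called, did not overlap between groups and averaged 10 or more in the higher group. The rule takes the 2 rises and 2 falls with the smallest p and with the largest fold change, and 1 rise and 1 fall each for an effect that differs from 0dpa, for calls at all 4 times, and for calls in the same and in the opposite direction in whole bodies at 1dpa. Features with near-identical copies are uncertain, since reads may be split between them. The members, lists, tests and alternatives were chosen with earlier results of these data known. Gene lists and markers needed gene names and were not used.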

Additional observations from a re-analysis of the deposited data

Results flagged for a closer look

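The effect of opa1 RNAi at 2dpa differed from that at another time, by an interaction test in limma, for 10 features against 0dpa, 53 against 6hpa and 4 against 1dpa. Among the named features, the difference in log2 fold change from 0dpa was 0.78 for SMED30007457 and −1.84 for SMED30026445. The difference from 6hpa was 0.68 for SMED30007457, 1.08 for SMED30026774 and −1.51 for SMED30026445, with limma adjusted p = 0.0187, 0.000245 and 0.00482.

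In whole bodies the effect of opa1 RNAi at 1dpa minus that at homo was tested with edgeR, and differed for 5 named features. The log2 difference was −0.62 for SMED30026774 (edgeR adjusted p = 0.000227), −1.29 for SMED30021874 (2.19e-07), −1.09 for SMED30012212 (0.00249), −1.96 for SMED30020097 (5.61e-05) and −0.93 for SMED30026445 (0.000879).

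In 3 features all libraries moved one way in tails at 2dpa and the opposite way in whole bodies at 1dpa, and the difference between them was not tested. SMED30021874 had a log2 fold change of −0.36 in whole bodies. The tail features with the deepest and the second deepest fall had 0.37 and 0.28 in whole bodies, where edgeR called neither (adjusted p = 0.345 and 0.506).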

How the results depend on the processing

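The call counts moved with the libraries left out and with those fitted. Leaving out 1 library gave 85 to 166 calls for opa1 RNAi against control tails at 2dpa, 64 to 147 for combined against opa1 RNAi and 43 to 56 for combined RNAi against control at 2dpa. It gave 5 to 17, 27 to 148 and 0 to 17 for the change of the effect from 0dpa, 6hpa and 1dpa, and 1503 to 2235 and 5128 to 8184 for whole bodies at 1dpa and homo. Leaving out the 6hpa libraries gave 369 calls for opa1 RNAi, 288 for combined against opa1 RNAi, 120 for combined RNAi against control, and 20 and 9 for the change from 0dpa and 1dpa. With only the libraries compared these were 789, 691 and 252, then 14 and 1 for the change from 6hpa and 1dpa, and with the 9 libraries at 2dpa opa1 RNAi gave 1020. The TPM values gave 92 for combined against opa1 RNAi and 19 and 707 for the change from 0dpa and 6hpa. Of the 707, 7 were more positive and 700 more negative at 2dpa, beside a median of −0.29 over all features tested. A pseudocount of 5 gave 23 for the change from 0dpa, and scaling without the most abundant feature gave 16 and 1 for the change from 0dpa and 1dpa. The cause of these changes was not tested, nor was the part that comes from the number of libraries or of features tested. The other 84 of 136 such counts were within 1.5 times, no named feature changed direction at 2dpa, and 13 of 176 calls of named features under an alternative were lost. Low named features that a stricter filter, the TPM table, a smaller fit or the leaving out of a library removed gave no value there.

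No pairing by replicate number was seen: deviations of same-numbered opa1 RNAi and control tails at 2dpa correlated at r = 0.021, −0.0034 and −0.083. No opa1 RNAi library correlated best with the control library of its own number, and of the control libraries only replicate 1 correlated best with its own number. With 3 libraries in a group, such values cannot exclude a pairing. With the number as a replicate block there were 191 calls at 2dpa (108 higher, 83 lower), and 1 for the change from 1dpa. A count test on tail reads was not run, since whole reads could not be recovered.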
